A study of Mus musculus with 35 samples.

Results

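The genes of cholesterol and fatty acid synthesis are described here as a list of 28, taken for what their products do in these pathways. All 28 of 28 were present in the gene tables of the 3 RNA-seq experiments, and 28 of 28 passed the filter on low values in each. Of the list, 7 act between acetyl-CoA and farnesyl diphosphate (*Acat2*, *Hmgcs1*, *Mvk*, *Pmvk*, *Mvd*, *Idi1* and *Fdps*) and 11 between farnesyl diphosphate and cholesterol (*Fdft1*, *Sqle*, *Lss*, *Cyp51*, *Tm7sf2*, *Msmo1*, *Nsdhl*, *Hsd17b7*, *Ebp*, *Sc5d* and *Dhcr7*). A further 4 control the pathway or carry sterol (*Srebf1*, *Srebf2*, *Insig1* and *Stard4*), and 6 make and modify fatty acids (*Acly*, *Acaca*, *Fasn*, *Elovl6*, *Scd1* and *Scd2*).

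Cells build cholesterol from acetyl-CoA by way of mevalonate, squalene and lanosterol, and build fatty acids from the same acetyl-CoA by carboxylation, chain extension and desaturation. When sterol in the endoplasmic reticulum is low, the SREBP transcription factors encoded by *Srebf1* and *Srebf2* are released from INSIG, cut by proteases in the Golgi and enter the nucleus, where they switch on most of the enzymes of both pathways together, often beside NF-Y at the same promoters. The developing nervous system makes its own cholesterol, and sterol is also needed to modify and receive Hedgehog signals there.

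The study kept male mouse V6.5 embryonic stem cells of a mixed background on feeders, moved them to gelatin and turned them into neuroectoderm (NE) by taking LIF away and adding 1 µM retinoic acid for 72 h. Its genotypes were *Tet3*+/+, *Tet3* m/m, in which CRISPR editing changed the iron-binding residues of the TET3 dioxygenase, and *Tet3*-/-, in which exon 4 was removed. The day 3 experiment held 3 *Tet3*+/+, 3 *Tet3* m/m and 2 *Tet3*-/- samples, which the study calls separate clones. The Dnmt1 experiment held 2 samples of each genotype carrying myc-tagged Dnmt1 behind a CAG promoter and 2 carrying the empty vector, all selected with blasticidin, and the Tet3-CD experiment held 1 sample of each genotype transfected with an HA-tagged TET3 catalytic domain and 1 with the empty vector. Nothing in the labels says whether replicates of the transfections were separate cultures, so every p-value measures only the spread between these samples. For 2 replicates of a group, chi-square per degree of freedom over all genes was 13.84 to 87.18 on day 3. In the Dnmt1 experiment it was 3.96 to 11.11, so its replicates were closer together. Labels of the transfected samples name no clones, so clone and genotype cannot be told apart there. The methods and the labels place the collection of the Tet3-CD samples at different times. Samples of the Tet3-CD experiment have no replicate.

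Values are DESeq2-normalized counts as deposited, and a gene is called when limma's moderated test over all genes of an experiment gave a Benjamini-Hochberg adjusted p under 0.05. Fold changes are on the log2 scale, first group minus second, after adding 1 to each value. Samples held between 36594650 and 47710548 reads assigned to genes on day 3. Those transfected with Dnmt1 or its empty vector held 31155842 to 50845950 such reads, and those of the Tet3-CD set 33475041 to 37707719. At this depth the counting error of a member in a sample was at most 3.9%, 4.33% and 4.26% of its value in these experiments. Because the cells are measured in bulk, fewer cells of a type and less RNA per cell cannot be told apart.

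*Tet3* itself had 4613, 4577 and 5020.0 (*Tet3*+/+), 2666, 2277 and 1945 (*Tet3* m/m) and 1796 and 2329 (*Tet3*-/-) on day 3, so that all mutant samples were below all *Tet3*+/+ samples. With the empty vector of the Dnmt1 experiment its values were 2957 and 3075 (*Tet3*+/+), 1125 and 964 (*Tet3* m/m) and 2520.3 and 2571 (*Tet3*-/-). With the empty vector of the Tet3-CD experiment they were 4755 (*Tet3*+/+), 1849.9 (*Tet3* m/m) and 2069.8 (*Tet3*-/-), and with the catalytic domain 5441, 5232 and 2759. The catalytic-domain sample was the higher of the pair in each genotype. Counts over a whole gene show neither a point mutation nor the loss of exon 4, so they check nothing of either allele. *Dnmt1*, the maintenance methyltransferase, had 14679 and 15225 (*Tet3*+/+), 11934 and 11285 (*Tet3* m/m) and 17356 and 17554 (*Tet3*-/-) in empty-vector samples and 22799 and 23768 (*Tet3*+/+), 20245 and 23211 (*Tet3* m/m) and 33380.5 and 39854 (*Tet3*-/-) in Dnmt1 samples, which was higher in every genotype and highest in *Tet3*-/- cells. Its log2 change was 0.64 (*Tet3*+/+), 0.90 (*Tet3* m/m) and 1.06 (*Tet3*-/-), and the excess in *Tet3*-/- over *Tet3*+/+ was 0.42 (SE 0.09, limma, Benjamini-Hochberg adjusted p 0.00502).

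The NE label was checked against marker lists. All 8 of 8 NE markers were in the day 3 table, their summed values were 19228, 18149 and 24204 (*Tet3*+/+), 17295, 21391 and 21234 (*Tet3* m/m) and 28574 and 24629.7 (*Tet3*-/-), and *Nes* was the most abundant, with 10354, 6667 and 11618 (*Tet3*+/+), 10131, 10137 and 7604 (*Tet3* m/m) and 21181 and 19689 (*Tet3*-/-). The sums do not speak for every marker. *Neurog2* had 73.3, 123 and 92.9 (*Tet3*+/+), 14.3, 18.6 and 28.5 (*Tet3* m/m) and 8.48 and 5.69 (*Tet3*-/-), *Zic1* 1080.4, 1448 and 1629 (*Tet3*+/+), 339, 629.8 and 754 (*Tet3* m/m) and 762 and 725 (*Tet3*-/-) and *Pax6* 1576, 1484 and 2063 (*Tet3*+/+), 879.9, 1067 and 1089.6 (*Tet3* m/m) and 1426 and 1032 (*Tet3*-/-), so these 3 were lower in all mutant samples than in all *Tet3*+/+ samples. *Hoxb1* went the other way in *Tet3* m/m, with 1879, 1907 and 1744 (*Tet3*+/+), 3605, 3577 and 3374 (*Tet3* m/m) and 2204 and 1573 (*Tet3*-/-). *Sox1*, with 1063, 1810.1 and 3013 (*Tet3*+/+), 396, 1242 and 1765 (*Tet3* m/m) and 955 and 253 (*Tet3*-/-), and *Sox2*, with 3203, 4693 and 4041 (*Tet3*+/+), 1923, 4695 and 6551 (*Tet3* m/m) and 2032 and 1350.3 (*Tet3*-/-), overlapped between *Tet3* m/m and *Tet3*+/+. Among the NE markers *Otx2* was low in every sample, with 0, 16.8 and 3.95 (*Tet3*+/+), 6.15, 25.3 and 69.2 (*Tet3* m/m) and 4.24 and 2.28 (*Tet3*-/-). All 5 of 5 pluripotency markers were also present, led over all samples by *Nanog*, with sums of 4656, 5997 and 3778 (*Tet3*+/+), 4354, 7437 and 12817 (*Tet3* m/m) and 5913 and 3195 (*Tet3*-/-). Replicate 3 of *Tet3* m/m stood highest. Of 8 visceral endoderm markers 7 were in the table, *Apoa1* was missing and *Foxa2* led over all samples, with sums of 3135, 3703 and 4107 (*Tet3*+/+), 5156, 6024 and 7872 (*Tet3* m/m) and 1867 and 1661 (*Tet3*-/-). By these sums every *Tet3* m/m sample was above every other sample and both *Tet3*-/- samples were below, but single markers differed. *Cubn* had 313, 672 and 621 (*Tet3*+/+), 2252, 1724 and 4009 (*Tet3* m/m) and 95.4 and 250.5 (*Tet3*-/-), *Foxa2* had 1449, 1684 and 1631 (*Tet3*+/+), 1443, 2636 and 2108 (*Tet3* m/m) and 785 and 745 (*Tet3*-/-), where *Tet3* m/m and *Tet3*+/+ overlapped, and *Sox17* had 1285, 1246 and 1736 (*Tet3*+/+), 1091, 1234 and 1182 (*Tet3* m/m) and 915 and 537 (*Tet3*-/-), with *Tet3* m/m below *Tet3*+/+. The 6 parietal endoderm markers, led over all samples by *Sparc*, summed to 103001, 91682 and 125894 (*Tet3*+/+), 115869, 102435 and 143849.7 (*Tet3* m/m) and 147279.8 and 128888 (*Tet3*-/-), with *Tet3* m/m overlapping both other groups. The 6 fibroblast markers, taken to look for feeders, were led by *Col1a1* and summed to 27638, 16872 and 20418 (*Tet3*+/+), 20286, 14651 and 10286 (*Tet3* m/m) and 42147 and 46869.6 (*Tet3*-/-), and both *Tet3*-/- sums were highest. Not every marker followed. *Col1a2* overlapped, with 5906, 5093 and 4003 (*Tet3*+/+), 5997, 5387 and 3807 (*Tet3* m/m) and 5326 and 6422 (*Tet3*-/-). *Thy1* was highest in *Tet3* m/m, with 82.88, 96.2 and 79.07 (*Tet3*+/+), 183.34, 166.09 and 124.23 (*Tet3* m/m) and 124.07 and 100.19 (*Tet3*-/-). Of 5 mesoderm markers 4 were in the table, led by *Hand1*, with *Mesp1* missing and sums of at most 436.

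The genotypes of the Dnmt1 experiment also differed in these markers. With the empty vector the pluripotency sums were 17499 and 17433 (*Tet3*+/+), 50428 and 49377 (*Tet3* m/m) and 2948 and 3095 (*Tet3*-/-). The sums of all 8 of 8 visceral endoderm markers, led over all samples by *Cubn*, were 15236 and 16869.7 (*Tet3*+/+), 73731 and 65014 (*Tet3* m/m) and 4091 and 3957 (*Tet3*-/-). Parietal endoderm sums were 252629 and 261209.7 (*Tet3*+/+), 616189.8 and 550729.6 (*Tet3* m/m) and 113283 and 110810.4 (*Tet3*-/-). So the sums of pluripotency, visceral and parietal endoderm markers were highest in *Tet3* m/m and lowest in *Tet3*-/- samples. Single markers could differ, as *Foxa2* had 1227 and 1134 (*Tet3*+/+), 1877 and 1985 (*Tet3* m/m) and 1745 and 1832 (*Tet3*-/-), with *Tet3*-/- above *Tet3*+/+, and *Thbd* had 83.0 and 116 (*Tet3*+/+), 91.4 and 112 (*Tet3* m/m) and 278 and 231 (*Tet3*-/-), highest in *Tet3*-/-. Fibroblast sums had the reverse order, at 19276 and 17555 (*Tet3*+/+), 2866 and 3090.4 (*Tet3* m/m) and 35985 and 35969.8 (*Tet3*-/-), though not in every marker. *Thy1* had 195 and 166 (*Tet3*+/+), 314 and 361 (*Tet3* m/m) and 99.1 and 61.4 (*Tet3*-/-), highest in *Tet3* m/m, and *Dcn* had 506 and 442 (*Tet3*+/+), 46.6 and 46.9 (*Tet3* m/m) and 380.0 and 417 (*Tet3*-/-), with *Tet3*-/- below *Tet3*+/+. NE sums were 16840.0 and 17308 (*Tet3*+/+), 19968 and 19445 (*Tet3* m/m) and 18302 and 17938 (*Tet3*-/-), but they add markers that went opposite ways. *Nes* had 4531 and 4370.5 (*Tet3*+/+), 897 and 986 (*Tet3* m/m) and 12451 and 11862 (*Tet3*-/-) and *Zic1* 394 and 480.1 (*Tet3*+/+), 64.0 and 70.3 (*Tet3* m/m) and 1004 and 1141 (*Tet3*-/-), highest in *Tet3*-/- and lowest in *Tet3* m/m, while *Sox2* had 5990.4 and 6301 (*Tet3*+/+), 14731 and 14051 (*Tet3* m/m) and 2169.6 and 2379 (*Tet3*-/-), highest in *Tet3* m/m and lowest in *Tet3*-/-. *Pax6* had 1041 and 995 (*Tet3*+/+), 231 and 309 (*Tet3* m/m) and 1059 and 913 (*Tet3*-/-), with *Tet3* m/m lowest. Mesoderm sums, led by *Hand1*, were 821 and 776 (*Tet3*+/+), 255 and 294 (*Tet3* m/m) and 438 and 329 (*Tet3*-/-). Markers also moved with the Dnmt1 vector in each genotype. Pluripotency sums with Dnmt1 were 18969 and 18863 (*Tet3*+/+), 56113 and 54286 (*Tet3* m/m) and 4759 and 4605 (*Tet3*-/-), and NE sums were 19536 and 19067 (*Tet3*+/+), 20595 and 20603 (*Tet3* m/m) and 21021 and 22288 (*Tet3*-/-). *Nes* had 6384 and 6185 (*Tet3*+/+), 1632 and 1772 (*Tet3* m/m) and 15014 and 17230.4 (*Tet3*-/-) and *Zic1* 1160.5 and 1030.5 (*Tet3*+/+), 229 and 263 (*Tet3* m/m) and 942 and 714 (*Tet3*-/-), so that *Nes* was above its empty-vector samples in every genotype and *Zic1* above in *Tet3*+/+ and *Tet3* m/m. Other NE markers fell. *Hoxb1* went from 2528 and 2491 (*Tet3*+/+), 2667 and 2622 (*Tet3* m/m) and 1220 and 1221 (*Tet3*-/-) to 1665 and 1761, 1776 and 2086, and 1637 and 1683, rising only in *Tet3*-/-. In *Tet3*-/- cells *Pax6* went from 1059 and 913 to 826 and 699, and *Sox1* from 349 and 390 to 325 and 250. The fibroblast marker *Col1a2* went from 7343 and 6748 (*Tet3*+/+), 1085 and 1076 (*Tet3* m/m) and 7535 and 7663 (*Tet3*-/-) to 5026 and 5052 (*Tet3*+/+), 1704 and 1691 (*Tet3* m/m) and 4027 and 4015 (*Tet3*-/-). It rose only in *Tet3* m/m, but *Col1a1* rose in every genotype, from 8321 and 7499 (*Tet3*+/+), 1346 and 1498 (*Tet3* m/m) and 19077 and 19225 (*Tet3*-/-) to 8953 and 8414, 2018 and 2145, and 20324 and 28182. Fibroblast sums with Dnmt1 were 18714 and 17599.5 (*Tet3*+/+), 4478.5 and 4557.5 (*Tet3* m/m) and 33521 and 43874 (*Tet3*-/-). In the Tet3-CD experiment, with the empty vector, parietal endoderm sums were 1022474 (*Tet3*+/+), 217321 (*Tet3* m/m) and 290220.3 (*Tet3*-/-), and visceral endoderm sums were 39687 (*Tet3*+/+), 9357 (*Tet3* m/m) and 9938 (*Tet3*-/-). Those of pluripotency markers were 5533 (*Tet3*+/+), 11255 (*Tet3* m/m) and 7192 (*Tet3*-/-), those of NE markers 8493, 19663 and 8982, and those of fibroblast markers 29974, 26707 and 21786. The NE sum of *Tet3* m/m does not speak for most of its markers. *Nes* had 5410 in *Tet3*+/+ and 15200 in *Tet3* m/m cells, but 5 of the 8 were past 1.5-fold lower in *Tet3* m/m and 3 higher, with a median log2 ratio of -0.93. Mesoderm sums were 390 (*Tet3*+/+), 484 (*Tet3* m/m) and 2070 (*Tet3*-/-), led by *Hand1*. Between the *Tet3*-/- samples of that experiment the visceral endoderm sum was 9938 with the empty vector and 3891 with the catalytic domain, the pluripotency sum was 7192 and 4522, and the NE sum was 8982 and 15479. *Nes* went from 5042 to 12359 there, but 5 of the 8 NE markers were lower with the catalytic domain and 3 higher, with a median log2 ratio of -0.35. The marker lists moved with the genotypes and vectors in several comparisons that follow, and their part in those results was not tested.

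On day 3, *Tet3* m/m cells had less RNA of most of the 28 genes than *Tet3*+/+ cells. Against the mean of the *Tet3*+/+ samples, the median log2 ratio of the members was -0.52, -0.51 and -0.70 in the *Tet3* m/m samples, -0.01 and -0.32 in the *Tet3*-/- samples and -0.02, -0.06 and 0.09 in the *Tet3*+/+ samples. All 3 *Tet3* m/m samples were thus lower than any other sample. Between *Tet3* m/m and *Tet3*+/+ cells, 20 of 28 members fell, where 7.28% of all genes tested fell, and 0 rose, where 6.59% did. At an unadjusted p under 0.05 limma had 24 members lower, beside 14.4% of all genes, and 0 higher, beside 14.1%. EdgeR called 20 lower, beside 1253 of all 17915 genes, and 0 higher, beside 1203. DESeq2 called 21 lower, beside 1722, and 0 higher, beside 1686. The median fold change of the members was -0.57, beside 0.00 over all genes, and 13 of the 28 fell past 1.5-fold, where 5.19% of all genes did. Without *Tet3*+/+ replicate 3 the count of 20 was 13, where 4.30% of all genes were lower.

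The mevalonate steps fell in 6 of 7 genes on day 3, where 7.28% of all genes fell, with a median of -0.57. *Mvd*, whose enzyme decarboxylates mevalonate diphosphate, had 3784, 3921 and 4417 (*Tet3*+/+), 1367, 2331 and 1772 (*Tet3* m/m) and 3341 and 2500.2 (*Tet3*-/-). Its *Tet3* m/m samples lay wholly below both other genotypes, and the fold change from *Tet3*+/+ was -1.18 (SE 0.18, limma, Benjamini-Hochberg adjusted p 0.00206). *Idi1*, the isopentenyl diphosphate isomerase, had 2221, 2181 and 2564 (*Tet3*+/+), 1565, 1189.6 and 996 (*Tet3* m/m) and 2269 and 1579 (*Tet3*-/-). The highest *Tet3* m/m sample was just under the lower *Tet3*-/- sample, and the fold change was -0.91 (SE 0.18, limma, Benjamini-Hochberg adjusted p 0.00756). *Acat2*, the cytosolic thiolase that joins 2 acetyl-CoA, had 6313, 6064 and 6264 (*Tet3*+/+), 3555, 3719.7 and 3293 (*Tet3* m/m) and 5503 and 4288 (*Tet3*-/-). Replicates of *Tet3* m/m were close together and below all others, with a fold change of -0.82 (SE 0.10, limma, Benjamini-Hochberg adjusted p 7.14e-04). *Hmgcs1*, which makes HMG-CoA, had 17094, 16899 and 18069.6 (*Tet3*+/+), 12642, 11905 and 10658 (*Tet3* m/m) and 16902 and 13110.1 (*Tet3*-/-). *Tet3* m/m samples were again lowest and the fold change was -0.57 (SE 0.11, limma, Benjamini-Hochberg adjusted p 0.00741). *Mvk*, the mevalonate kinase, had 1753, 1396 and 1703 (*Tet3*+/+), 1052, 1244 and 1083 (*Tet3* m/m) and 1740.2 and 1369 (*Tet3*-/-), and *Pmvk*, the kinase of the next step, had 1358, 1447 and 1374 (*Tet3*+/+), 857, 1132 and 958 (*Tet3* m/m) and 925 and 948 (*Tet3*-/-). *Pmvk* was low in both mutants, with its *Tet3*-/- samples inside the range of *Tet3* m/m, while 1 of the *Tet3*-/- samples of *Mvk* was within the *Tet3*+/+ range and the other just under it. Their fold changes between *Tet3* m/m and *Tet3*+/+ were -0.52 and -0.51. *Fdps*, which makes farnesyl diphosphate, had 3710.5, 3225 and 3481 (*Tet3*+/+), 2978, 2772 and 2362 (*Tet3* m/m) and 3488 and 2627 (*Tet3*-/-), and its difference of -0.36 was not called although the groups did not overlap.

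**Figure D1:**
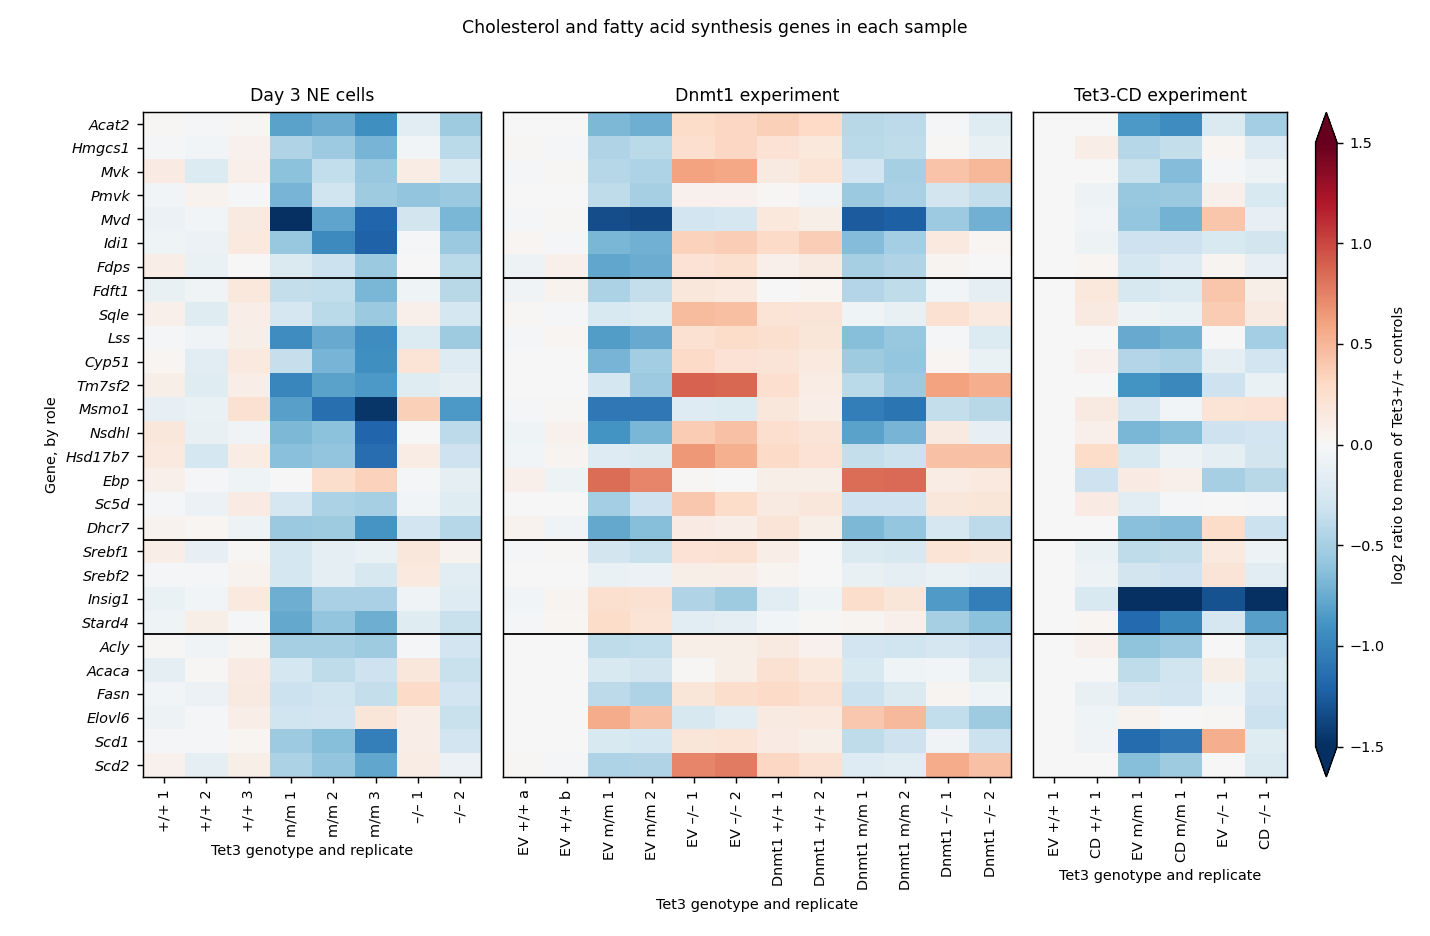
Log2 ratio of each of the 28 genes in each of 26 samples to the mean of the *Tet3*+/+ controls of its experiment (day 3 samples, or empty-vector samples of the Dnmt1 and Tet3-CD experiments), blue below and red above, with colours ending at 1.5 in either direction and lines between roles. The day 3 *Tet3* m/m columns are blue for all but a few genes, with medians of -0.52, -0.51 and -0.70.

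Squalene and sterol steps fell in 9 of 11 genes on day 3, where 7.28% of all genes fell, with a median of -0.66. *Msmo1*, the methylsterol oxidase, had 7049, 7130.0 and 8946 (*Tet3*+/+), 4349, 3493 and 2793 (*Tet3* m/m) and 9839.9 and 4231 (*Tet3*-/-). Its *Tet3* m/m samples were below all *Tet3*+/+ samples, but *Tet3*-/- samples spanned from inside the range of *Tet3* m/m to above every *Tet3*+/+ sample, and the fold change of *Tet3* m/m was -1.13 (SE 0.26, limma, Benjamini-Hochberg adjusted p 0.017). *Tm7sf2*, a sterol reductase, had 1591, 1319.7 and 1608 (*Tet3*+/+), 761, 858 and 825 (*Tet3* m/m) and 1318 and 1362 (*Tet3*-/-). The *Tet3* m/m samples stood apart from all others and the fold change was -0.88 (SE 0.11, limma, Benjamini-Hochberg adjusted p 8.00e-04). *Lss*, which closes the rings to lanosterol, had 5539, 5431 and 6005 (*Tet3*+/+), 2955, 3343 and 2965 (*Tet3* m/m) and 4885 and 3919.9 (*Tet3*-/-). Here all 3 genotypes were in separate ranges, *Tet3* m/m lowest, with a fold change of -0.87 (SE 0.10, limma, Benjamini-Hochberg adjusted p 5.02e-04) for *Tet3* m/m. *Nsdhl*, a dehydrogenase that takes part in removing methyl groups, had 2384, 1962 and 2036 (*Tet3*+/+), 1332, 1387 and 927 (*Tet3* m/m) and 2127 and 1616 (*Tet3*-/-). Its *Tet3* m/m samples were lowest, replicate 3 most of all, and the fold change was -0.83 (SE 0.17, limma, Benjamini-Hochberg adjusted p 0.00914). *Hsd17b7*, the ketoreductase of the same steps, had 1643, 1238 and 1602 (*Tet3*+/+), 963, 982 and 670.0 (*Tet3* m/m) and 1602 and 1197 (*Tet3*-/-). Again *Tet3* m/m samples were lowest, replicate 3 most of all, with a fold change of -0.79 (SE 0.18, limma, Benjamini-Hochberg adjusted p 0.016). *Cyp51*, the lanosterol demethylase, had 7117, 6218 and 7733 (*Tet3*+/+), 5511, 4304 and 3684 (*Tet3* m/m) and 8084 and 6096 (*Tet3*-/-), and *Dhcr7*, the reductase of the last step, had 4639.5, 4570.0 and 4249 (*Tet3*+/+), 3051, 3106 and 2436 (*Tet3* m/m) and 3678 and 3326 (*Tet3*-/-). Both were lowest in *Tet3* m/m samples, and only *Dhcr7* had both *Tet3*-/- samples below *Tet3*+/+. Their fold changes in *Tet3* m/m were -0.66 and -0.65. *Fdft1*, the squalene synthase, had 5738, 5971 and 6927 (*Tet3*+/+), 4847, 4778 and 3835 (*Tet3* m/m) and 5901 and 4655 (*Tet3*-/-), and *Sc5d*, a sterol desaturase, had 3219, 3089.6 and 3563 (*Tet3*+/+), 2765, 2371 and 2323 (*Tet3* m/m) and 3199 and 2888 (*Tet3*-/-). *Tet3* m/m samples were below all *Tet3*+/+ samples for both, with fold changes of -0.47 and -0.41. *Sqle*, the squalene epoxidase, had 7623, 6399 and 7777 (*Tet3*+/+), 6098, 5451 and 4913 (*Tet3* m/m) and 7625 and 6025 (*Tet3*-/-), with *Tet3* m/m samples under all *Tet3*+/+ samples and a difference of -0.41 that was not called. *Ebp*, the sterol isomerase, went the other way with 874, 818 and 789.7 (*Tet3*+/+), 829.7, 991 and 1049 (*Tet3* m/m) and 812 and 755 (*Tet3*-/-), where the groups overlapped and the difference of 0.20 was not called.

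Of the 4 regulators and carriers, 2 fell on day 3, where 7.28% of all genes did. *Insig1*, which holds SREBP in the endoplasmic reticulum and is itself an SREBP target, had 3985, 4147 and 4738 (*Tet3*+/+), 2580.1, 3049 and 3059 (*Tet3* m/m) and 4118 and 3748 (*Tet3*-/-). The *Tet3* m/m samples lay below all others and the fold change was -0.57 (SE 0.10, limma, Benjamini-Hochberg adjusted p 0.00584). *Stard4*, a cytosolic sterol carrier, had 3209, 3561 and 3307 (*Tet3*+/+), 1967, 2225 and 2015 (*Tet3* m/m) and 2969 and 2662 (*Tet3*-/-). Each genotype kept to its own range, with *Tet3*-/- between the others and a fold change of -0.70 (SE 0.09, limma, Benjamini-Hochberg adjusted p 0.001) in *Tet3* m/m. *Srebf2*, the transcription factor more tied to cholesterol genes, had 18937, 18818 and 19989 (*Tet3*+/+), 15978, 17586 and 16328 (*Tet3* m/m) and 21331 and 17212 (*Tet3*-/-). Its *Tet3* m/m samples were below *Tet3*+/+ by little, and the difference of -0.21 was not called. *Srebf1*, more tied to fatty acid genes, had 8397, 7149.6 and 7938 (*Tet3*+/+), 6482, 7037 and 7275 (*Tet3* m/m) and 8813 and 8082 (*Tet3*-/-), with overlapping groups and a difference of -0.17 that was not called either.

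Fatty acid steps fell in 3 of 6 genes on day 3, where 7.28% of all genes fell, with a median of -0.42. *Scd2*, a desaturase abundant in the embryo and brain, had 110483, 95246 and 112421 (*Tet3*+/+), 75844, 70177 and 61561 (*Tet3* m/m) and 114697 and 99449 (*Tet3*-/-). *Tet3* m/m samples were below all others, 1 *Tet3*-/- sample was inside the *Tet3*+/+ range and 1 above it, and the fold change of *Tet3* m/m was -0.62 (SE 0.12, limma, Benjamini-Hochberg adjusted p 0.00791). *Scd1*, the related desaturase, had 11866, 11903 and 12313 (*Tet3*+/+), 8261, 7737 and 5917 (*Tet3* m/m) and 12883 and 9840.3 (*Tet3*-/-). The *Tet3* m/m samples were below all others, replicate 3 lowest, with a fold change of -0.73 (SE 0.14, limma, Benjamini-Hochberg adjusted p 0.00584). *Acly*, which makes cytosolic acetyl-CoA from citrate, had 24245, 23037 and 24586 (*Tet3*+/+), 16893, 16942 and 16541 (*Tet3* m/m) and 23373 and 19663 (*Tet3*-/-). Its *Tet3* m/m samples were close together and lay below all others, with a fold change of -0.51 (SE 0.09, limma, Benjamini-Hochberg adjusted p 0.00428). *Acaca*, the acetyl-CoA carboxylase, had 7332, 8172 and 8768 (*Tet3*+/+), 6739.7, 6188 and 6532 (*Tet3* m/m) and 9102 and 6383 (*Tet3*-/-), and *Fasn*, the fatty acid synthase, had 38281, 37028 and 43223 (*Tet3*+/+), 31443, 31965 and 30834 (*Tet3* m/m) and 47911 and 32335 (*Tet3*-/-). *Tet3* m/m samples were below all *Tet3*+/+ samples and the differences of -0.32 and -0.33 were not called. *Elovl6*, the elongase of palmitate, had 5358, 5577 and 6095 (*Tet3*+/+), 4608, 4653 and 6407 (*Tet3* m/m) and 6060.4 and 4502 (*Tet3*-/-), with replicate 3 of *Tet3* m/m the highest of all samples and the groups overlapping.

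**Figure D2:**
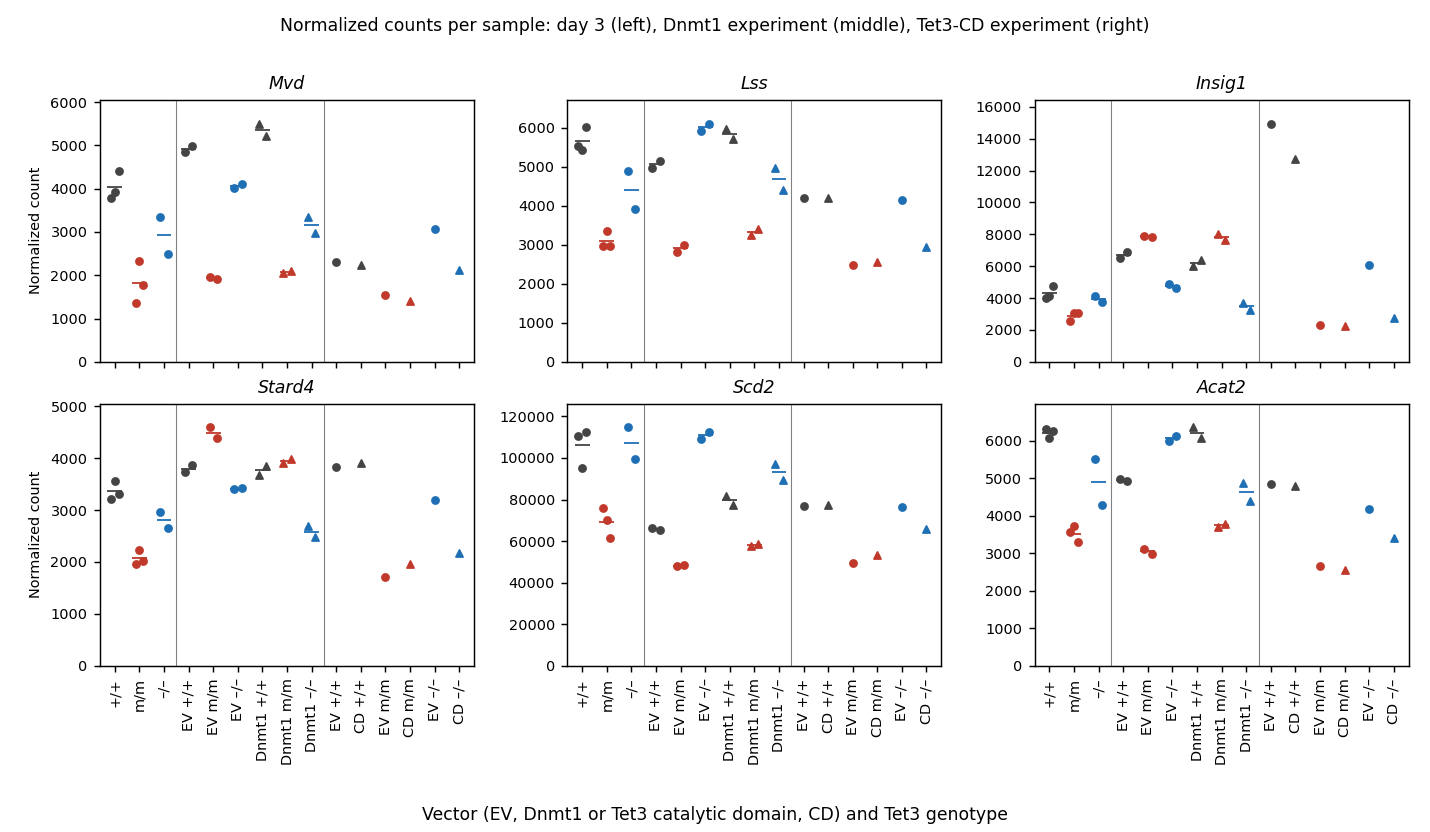
Normalized counts of 6 genes in every sample, grouped by vector and genotype on the horizontal axis (dark grey *Tet3*+/+, red *Tet3* m/m, blue *Tet3*-/-, circles no vector or empty vector, triangles Dnmt1 or Tet3-CD), with lines at group means where a group has more than 1 sample. *Insig1* and *Stard4* are lower in *Tet3* m/m than *Tet3*+/+ cells in the day 3 and Tet3-CD experiments and higher with the empty vector of the Dnmt1 experiment.

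No member was called between *Tet3*-/- and *Tet3*+/+ cells on day 3. Of the 28, 0 rose, where 0.480% of all genes did, and 0 fell, where 0.201% did. By limma 6 members had an unadjusted p under 0.05 and were lower, beside 9.30% of all genes, and 0 were higher, beside 10.8%. By edgeR 0 were called, where 67 of all 17915 genes were higher and 23 lower. By DESeq2 1 of 28, *Pmvk*, was lower, where 2.99% of all genes were by that tool. Values of *Pmvk* were 1358, 1447 and 1374 in *Tet3*+/+ and 925 and 948 in *Tet3*-/- samples. These ranges are apart, and limma gave a difference of -0.57 (SE 0.13, limma, Benjamini-Hochberg adjusted p 0.0656). The count of members called by limma was 1 without *Tet3* m/m replicate 1, 1 without *Tet3* m/m replicate 3 and 1 when only the compared groups were fitted, each lower, where 2.54%, 1.11% and 1.92% of all genes were. The median fold change of the members was -0.14, beside -0.01 over all genes. The 2 clones differed, so that it was -0.32 without *Tet3*-/- replicate 1 and -0.01 without *Tet3*-/- replicate 2.

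Set against *Tet3* m/m cells, *Tet3*-/- cells on day 3 had 11 of 28 members higher, where 6.96% of all genes were, and 0 lower, where 5.29% were. At an unadjusted p under 0.05 limma had 20 higher, beside 14.8% of all genes, and 0 lower, beside 13.2%. EdgeR called 9 higher, beside 1206 of all 17915 genes, and 0 lower, beside 872. DESeq2 called 15 higher, beside 1752, and 0 lower, beside 1444. The 11 were *Acat2*, *Mvd*, *Lss*, *Cyp51*, *Tm7sf2*, *Hsd17b7*, *Insig1*, *Stard4*, *Acly*, *Scd1* and *Scd2*. The largest of these differences was 0.72 (SE 0.13, limma, Benjamini-Hochberg adjusted p 0.00566) for *Tm7sf2*, and that of *Mvd* was 0.70 (SE 0.20, limma, Benjamini-Hochberg adjusted p 0.0454). The median was 0.40, beside -0.01 over all genes. The count rested on single samples. It was 1 without *Tet3*-/- replicate 1, beside 3.89% of all genes, 5 without *Tet3* m/m replicate 3, beside 4.83%, and 6 without *Tet3* m/m replicate 2, beside 4.16%. It was 6 without *Tet3*+/+ replicate 1, beside 5.20%, and 7 without *Tet3*+/+ replicate 2, beside 5.96%, a pair that enters only through the estimate of spread. Fitting the compared groups alone gave 2, beside 3.73%. This comparison and the one between *Tet3* m/m and *Tet3*+/+ share the *Tet3* m/m samples.

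With the empty vector of the Dnmt1 experiment, *Tet3* m/m cells again had less RNA of most members, while *Tet3*-/- cells had more. Median log2 ratios to the mean of the *Tet3*+/+ samples were -0.41 and -0.43 in *Tet3* m/m samples and 0.19 and 0.22 in *Tet3*-/- samples. In *Tet3* m/m against *Tet3*+/+, 24 of 28 members fell, where 23.6% of all genes did, and 4 rose, where 21.9% did. The 4 that rose were *Ebp*, *Elovl6*, *Insig1* and *Stard4*. The median was -0.42, beside 0.01 over all genes. In *Tet3*-/- against *Tet3*+/+, 18 rose, where 26.7% of all genes did, and 5 fell, where 26.6% did. The 5 that fell were *Mvd*, *Msmo1*, *Insig1*, *Stard4* and *Elovl6*, and the median was 0.22, beside 0.00 over all genes. Between *Tet3*-/- and *Tet3* m/m, 24 were higher in *Tet3*-/-, where 32.4% of all genes were, and 4 were lower, where 33.2% were, with a median of 0.73 beside -0.01 over all genes. The last 4 were the genes that rose in *Tet3* m/m. Past 1.5-fold from *Tet3*+/+, 9 fell and 1 rose in *Tet3* m/m, where 10.9% and 10.3% of all genes did, and in *Tet3*-/- 4 rose and 0 fell, where 1993 and 2511 of all 18055 genes did. Each of these comparisons shares samples with the others, so they are not independent of one another.

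All 7 of 7 mevalonate steps fell in empty-vector *Tet3* m/m cells, where 23.6% of all genes did. In *Tet3*-/- cells 5 rose, where 26.7% of all genes did, and 1 fell, where 26.6% did. *Mvd* had 4850.4 and 4978 (*Tet3*+/+), 1960.4 and 1924 (*Tet3* m/m) and 4025 and 4111 (*Tet3*-/-). Both mutants were below *Tet3*+/+, *Tet3* m/m by far the most, with fold changes of -1.34 (SE 0.06, limma, Benjamini-Hochberg adjusted p 3.33e-14) for *Tet3* m/m and -0.27 (SE 0.06, limma, Benjamini-Hochberg adjusted p 4.06e-04) for *Tet3*-/-. *Idi1* had 1644 and 1584 (*Tet3*+/+), 1003 and 979 (*Tet3* m/m) and 2055 and 2086 (*Tet3*-/-). Genotypes were in the order *Tet3* m/m, *Tet3*+/+, *Tet3*-/-, with fold changes of -0.70 and 0.36. *Acat2* had 4971 and 4938 (*Tet3*+/+), 3112 and 2989 (*Tet3* m/m) and 5983 and 6139.6 (*Tet3*-/-) and kept the same order, with fold changes of -0.70 (SE 0.05, limma, Benjamini-Hochberg adjusted p 4.99e-10) and 0.29 (SE 0.05, limma, Benjamini-Hochberg adjusted p 1.01e-04). *Fdps*, which had not been called on day 3, had 2767 and 3072 (*Tet3*+/+), 1704 and 1735 (*Tet3* m/m) and 3377 and 3452 (*Tet3*-/-), with a fold change of -0.76 (SE 0.06, limma, Benjamini-Hochberg adjusted p 4.79e-10) in *Tet3* m/m. *Mvk* had 1388 and 1427 (*Tet3*+/+), 1049 and 1019.7 (*Tet3* m/m) and 2131 and 2099 (*Tet3*-/-), and its rise in *Tet3*-/- was the largest of the branch at 0.59 (SE 0.07, limma, Benjamini-Hochberg adjusted p 6.09e-07). With 2 samples per group no genotypes overlapped for any of these genes. The share of all genes without overlap is not given, so nothing further is read from this. *Hmgcs1* and *Pmvk*, whose values are given below, fell in *Tet3* m/m at -0.43 and -0.44, and only *Hmgcs1* was called in *Tet3*-/-, at 0.28.

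Among squalene and sterol steps, 10 of 11 fell in empty-vector *Tet3* m/m cells, where 23.6% of all genes did, and 1 rose, where 21.9% did. In *Tet3*-/- cells 8 rose, where 26.7% of all genes did, and 1 fell, where 26.6% did. *Msmo1* had 6328 and 6479.8 (*Tet3*+/+), 3049.8 and 3047 (*Tet3* m/m) and 5594 and 5563 (*Tet3*-/-). Both mutants were below *Tet3*+/+, as for *Mvd*, with fold changes of -1.07 (SE 0.05, limma, Benjamini-Hochberg adjusted p 7.12e-14) in *Tet3* m/m and -0.20 in *Tet3*-/-. *Lss* had 4967 and 5152 (*Tet3*+/+), 2824 and 2995 (*Tet3* m/m) and 5909 and 6104 (*Tet3*-/-), lowest in *Tet3* m/m and highest in *Tet3*-/-, with fold changes of -0.80 (SE 0.06, limma, Benjamini-Hochberg adjusted p 1.63e-10) and 0.25. *Nsdhl* had 1537 and 1691 (*Tet3*+/+), 865 and 1004 (*Tet3* m/m) and 2105 and 2178 (*Tet3*-/-) in the same order, with fold changes of -0.79 (SE 0.09, limma, Benjamini-Hochberg adjusted p 1.18e-07) and 0.41. *Dhcr7* had 4720.0 and 4375 (*Tet3*+/+), 2669.6 and 2912 (*Tet3* m/m) and 4932 and 4856 (*Tet3*-/-), and it fell in *Tet3* m/m, at -0.70 (SE 0.06, limma, Benjamini-Hochberg adjusted p 4.92e-09), with no call in *Tet3*-/-. *Tm7sf2* had 1018 and 1010.0 (*Tet3*+/+), 846 and 695 (*Tet3* m/m) and 1868 and 1839.9 (*Tet3*-/-). In this gene the *Tet3*-/- samples stood well above the rest, with a fold change of 0.87 (SE 0.09, limma, Benjamini-Hochberg adjusted p 3.92e-08), and the *Tet3* m/m samples were below *Tet3*+/+, at -0.40. *Hsd17b7* had 911 and 965 (*Tet3*+/+), 818 and 809 (*Tet3* m/m) and 1466 and 1358 (*Tet3*-/-), with *Tet3*-/- highest again at 0.59 (SE 0.08, limma, Benjamini-Hochberg adjusted p 1.05e-06). *Sqle* had 6155 and 6037 (*Tet3*+/+), 5219 and 5285 (*Tet3* m/m) and 8505 and 8349.7 (*Tet3*-/-), which rose in *Tet3*-/- by 0.47 and fell in *Tet3* m/m by less, at -0.22. *Ebp* had 852 and 765 (*Tet3*+/+), 1439 and 1345 (*Tet3* m/m) and 814 and 806 (*Tet3*-/-). It was the reverse of its neighbours in *Tet3* m/m, where it rose by 0.78 (SE 0.08, limma, Benjamini-Hochberg adjusted p 2.41e-08), and *Tet3*-/- samples were within the *Tet3*+/+ range. *Cyp51* had 6107 and 6063 (*Tet3*+/+), 3766 and 4244 (*Tet3* m/m) and 7424 and 7052 (*Tet3*-/-), lowest in *Tet3* m/m at -0.61 and highest in *Tet3*-/- at 0.25. *Fdft1* had 5735 and 6193 (*Tet3*+/+), 4301 and 4656 (*Tet3* m/m) and 6695 and 6607 (*Tet3*-/-) in that order, at -0.41 and 0.16. *Sc5d* had 2471 and 2497 (*Tet3*+/+), 1742 and 2000.4 (*Tet3* m/m) and 3279 and 3013 (*Tet3*-/-), again in that order, at -0.41 and 0.34.

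The regulators split in empty-vector cells, 2 rising and 2 falling in *Tet3* m/m and likewise in *Tet3*-/-. Of all genes 21.9% rose and 23.6% fell in *Tet3* m/m, and 26.7% rose and 26.6% fell in *Tet3*-/-. *Insig1* had 6525 and 6879.8 (*Tet3*+/+), 7898 and 7839 (*Tet3* m/m) and 4907 and 4634 (*Tet3*-/-). *Tet3* m/m samples were highest and *Tet3*-/- samples lowest, with fold changes of 0.23 (SE 0.06, limma, Benjamini-Hochberg adjusted p 0.00238) and -0.49 (SE 0.06, limma, Benjamini-Hochberg adjusted p 4.02e-07). *Stard4* had 3728 and 3865 (*Tet3*+/+), 4592 and 4379.8 (*Tet3* m/m) and 3405 and 3422 (*Tet3*-/-) in the same order, with fold changes of 0.24 (SE 0.05, limma, Benjamini-Hochberg adjusted p 9.24e-04) and -0.15 (SE 0.05, limma, Benjamini-Hochberg adjusted p 0.0215). For both genes the direction in *Tet3* m/m was opposite to that on day 3. *Srebf2* had 20195 and 19933 (*Tet3*+/+), 18661 and 18841 (*Tet3* m/m) and 21368 and 21552 (*Tet3*-/-), within a narrow span and with fold changes of -0.10 in *Tet3* m/m and 0.10 in *Tet3*-/-. *Srebf1* had 6230.4 and 6382 (*Tet3*+/+), 5208 and 5004 (*Tet3* m/m) and 7352 and 7383 (*Tet3*-/-), with *Tet3* m/m lowest at -0.30 and *Tet3*-/- highest at 0.22.

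Fatty acid steps in empty-vector *Tet3* m/m cells fell in 5 of 6 genes, where 23.6% of all genes fell, and rose in 1, where 21.9% rose. In *Tet3*-/- cells 3 rose, where 26.7% of all genes did, and 1 fell, where 26.6% did. *Scd2* had 66494 and 65120.1 (*Tet3*+/+), 47866 and 48283 (*Tet3* m/m) and 109369 and 112488 (*Tet3*-/-). Genotypes were widely apart, with a fold change of -0.45 (SE 0.04, limma, Benjamini-Hochberg adjusted p 1.44e-08) for *Tet3* m/m and 0.75 (SE 0.04, limma, Benjamini-Hochberg adjusted p 5.74e-12) for *Tet3*-/-. *Elovl6* had 6447 and 6429 (*Tet3*+/+), 9442 and 8733 (*Tet3* m/m) and 5469 and 5717 (*Tet3*-/-), highest in *Tet3* m/m at 0.50 (SE 0.05, limma, Benjamini-Hochberg adjusted p 1.38e-07) and lowest in *Tet3*-/- at -0.20. *Acly* had 24088 and 24032 (*Tet3*+/+), 18480.4 and 18566 (*Tet3* m/m) and 25643 and 25509 (*Tet3*-/-), with *Tet3* m/m below the other genotypes at -0.38 and no call in *Tet3*-/-. *Fasn* had 39804 and 39470.0 (*Tet3*+/+), 30163 and 28731 (*Tet3* m/m) and 44790.3 and 47451 (*Tet3*-/-), with fold changes of -0.43 in *Tet3* m/m and 0.22 in *Tet3*-/-. *Scd1* had 11795 and 11924 (*Tet3*+/+), 10092 and 9863 (*Tet3* m/m) and 13414 and 13670.4 (*Tet3*-/-), lower in *Tet3* m/m by little at -0.25 and higher in *Tet3*-/- at 0.19. *Acaca* had 7458 and 7462 (*Tet3*+/+), 6344 and 6161 (*Tet3* m/m) and 7546 and 7914 (*Tet3*-/-), lowest in *Tet3* m/m at -0.25 and with no call in *Tet3*-/-.

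Dnmt1 raised a few of these genes in *Tet3*+/+ cells and lowered most of them in *Tet3*-/- cells. In *Tet3*+/+ cells 7 of 28 members rose, where 2.75% of all genes did, and 0 fell, where 2.84% did. At an unadjusted p under 0.05 limma had 18 higher, beside 10.1% of all genes, and 0 lower, beside 9.83%. EdgeR called 7 higher, beside 528 of all 18055 genes, and 0 lower, beside 626. DESeq2 called 9 higher, beside 618, and 0 lower, beside 644. The median was 0.15. In *Tet3* m/m cells 5 rose, where 6.73% of all genes did, and 1 fell, where 3.47% did, with a median of 0.05. In *Tet3*-/- cells 0 rose, where 7.46% of all genes did, and 23 fell, where 5.96% did, with a median of -0.28. The empty-vector samples of this comparison are those that stood above *Tet3*+/+ in the genotype comparison. Against the empty-vector *Tet3*+/+ mean, the median log2 ratio of the members was 0.19 and 0.22 in them. With Dnmt1 it was -0.0013 and -0.13 in *Tet3*-/- samples. In that genotype limma had 24 lower at an unadjusted p under 0.05, beside 11.9% of all genes, and 0 higher, beside 14.3%. EdgeR called 22 lower and 0 higher, and DESeq2 called 23 lower and 0 higher. Their counts over all genes are not given here, so nothing further is read from these. No member was called past 1.5-fold in any genotype. Of all genes 0.421% (*Tet3*+/+), 1.78% (*Tet3* m/m) and 2.51% (*Tet3*-/-) were called past it higher, and 0.753%, 0.681% and 1.02% lower.

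The small counts rested on single samples. In *Tet3*+/+ cells the count of 7 was 4 without empty-vector *Tet3*+/+ sample a, 3 without empty-vector *Tet3*+/+ sample b, 3 without Dnmt1 *Tet3*+/+ replicate 1 and 3 without Dnmt1 *Tet3*+/+ replicate 2, all higher, where 1.02%, 1.16%, 0.538% and 1.16% of all genes were. It was 11 without Dnmt1 *Tet3*-/- replicate 1 and 11 without Dnmt1 *Tet3*-/- replicate 2, which enter through the estimate of spread, and 15 when the 2 compared groups were fitted alone, where 4.33%, 4.36% and 5.95% of all genes were higher. In *Tet3* m/m cells the count of 6 was 3 without empty-vector *Tet3* m/m replicate 1, 3 without empty-vector *Tet3* m/m replicate 2 and 3 without Dnmt1 *Tet3* m/m replicate 2, all higher, where 4.39%, 4.16% and 4.22% of all genes were. In *Tet3*-/- cells the count of 23 was 15 without Dnmt1 *Tet3*-/- replicate 2, where 2.89% of all genes were lower.

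The difference between genotypes was itself tested. *Dnmt1* itself rose more in *Tet3*-/- than in *Tet3*+/+ cells, as given above, and the part of its level was not tested. From the effect of Dnmt1 in *Tet3*-/- minus that in *Tet3*+/+, 25 of 28 members were called lower, where 4.47% of all genes were, and 0 higher, where 5.24% were. Limma had 26 lower at an unadjusted p under 0.05, beside 10.6% of all genes, and 0 higher, beside 12.4%. EdgeR called 25 lower, beside 777 of all 18055 genes, and 0 higher, beside 1053. DESeq2 also called 25 lower, beside 885, and 0 higher, beside 963. The median of this interaction was -0.43, beside 0.01 over all genes. The 3 not called were *Mvk*, *Ebp* and *Srebf1*. Of the 28, 3 were lower past 1.5-fold, where 1.33% of all genes were, a rule applied here after seeing the data. By role, 6 of 7 mevalonate steps, 10 of 11 squalene and sterol steps, 3 of 4 regulators and carriers and 6 of 6 fatty acid steps were called. For *Tet3* m/m minus *Tet3*+/+, 0 were called lower, where 0.227% of all genes were, and 0 higher, where 1.08% were. Limma had 6 lower at an unadjusted p under 0.05, beside 4.25% of all genes, and 1 higher, beside 6.62%. EdgeR called 0, where 44 of all 18055 genes were lower and 230 higher, and DESeq2 called 0, where 70 were lower and 264 higher. The count called by limma became 1 without Dnmt1 *Tet3*-/- replicate 1 and 1 without Dnmt1 *Tet3*-/- replicate 2, each lower, where 0.489% and 0.494% of all genes were. Averaged over the 3 genotypes, Dnmt1 raised 1 member, where 8.30% of all genes rose, and lowered 5, where 6.06% fell. The risen gene was *Scd2* and the others *Stard4*, *Insig1*, *Pmvk*, *Scd1* and *Srebf2*. The vector effect in *Tet3*+/+ and both interactions share the *Tet3*+/+ samples with either vector. Each interaction also shares the samples of its mutant with the vector effect in that mutant. Vector effects and interactions share their empty-vector samples with the genotype comparisons above, so these results are not independent.

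*Acat2* shows the pattern in the mevalonate steps, with values of 6354 and 6071 (*Tet3*+/+), 3711 and 3776 (*Tet3* m/m) and 4884 and 4379 (*Tet3*-/-) under Dnmt1 against 4971 and 4938 (*Tet3*+/+), 3112 and 2989 (*Tet3* m/m) and 5983 and 6139.6 (*Tet3*-/-) in empty-vector samples. Dnmt1 samples were above in *Tet3*+/+ and *Tet3* m/m and below in *Tet3*-/-, at 0.33, 0.30 and -0.39, and the difference between *Tet3*-/- and *Tet3*+/+ was -0.72 (SE 0.08, limma, Benjamini-Hochberg adjusted p 3.16e-06). *Idi1* had 1971 and 2088 (*Tet3*+/+), 1032 and 1133 (*Tet3* m/m) and 1783 and 1647 (*Tet3*-/-) under Dnmt1. It rose in *Tet3*+/+, at 0.33 (SE 0.07, limma, Benjamini-Hochberg adjusted p 0.00643), and fell in *Tet3*-/-, at -0.27, a difference of -0.60 (SE 0.10, limma, Benjamini-Hochberg adjusted p 3.92e-04). *Hmgcs1* had 14274 and 13961 (*Tet3*+/+), 10309 and 10626 (*Tet3* m/m) and 16748 and 17454 (*Tet3*-/-) in empty-vector samples and 16345 and 15727 (*Tet3*+/+), 10693 and 10861 (*Tet3* m/m) and 14295 and 13045 (*Tet3*-/-) in Dnmt1 samples, and the difference between *Tet3*-/- and *Tet3*+/+ was -0.51 (SE 0.07, limma, Benjamini-Hochberg adjusted p 3.33e-05). *Mvd* had 5504 and 5213 (*Tet3*+/+), 2062 and 2099.9 (*Tet3* m/m) and 3355 and 2983 (*Tet3*-/-) with Dnmt1. Its change was called only in *Tet3*-/-, at -0.36, and the difference was -0.49 (SE 0.08, limma, Benjamini-Hochberg adjusted p 5.25e-04). *Pmvk* had 1665 and 1651 (*Tet3*+/+), 1271 and 1176 (*Tet3* m/m) and 1737 and 1734 (*Tet3*-/-) in empty-vector samples and 1676 and 1603 (*Tet3*+/+), 1126 and 1182 (*Tet3* m/m) and 1368 and 1296 (*Tet3*-/-) in Dnmt1 samples, falling in *Tet3*-/- at -0.38 (SE 0.07, limma, Benjamini-Hochberg adjusted p 5.85e-04), with a difference from *Tet3*+/+ of -0.37 (SE 0.10, limma, Benjamini-Hochberg adjusted p 0.0172). *Fdps* rose in *Tet3* m/m cells to 2063 and 2127 from 1704 and 1735, a fold change of 0.29 (SE 0.06, limma, Benjamini-Hochberg adjusted p 0.00251), and its difference from the effect in *Tet3*+/+ was not called, at 0.18. *Mvk* had 1546 and 1619 (*Tet3*+/+), 1151 and 998 (*Tet3* m/m) and 1889 and 1983 (*Tet3*-/-) under Dnmt1, with no call in any genotype.

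Of the sterol steps 2 rose under Dnmt1 in *Tet3*+/+ cells, where 2.75% of all genes did, and 8 fell in *Tet3*-/- cells, where 5.96% did. *Lss* had 5961 and 5722 (*Tet3*+/+), 3259 and 3405 (*Tet3* m/m) and 4959 and 4404 (*Tet3*-/-) with Dnmt1. It rose in *Tet3*+/+ and *Tet3* m/m and fell in *Tet3*-/-, at 0.21, 0.20 and -0.36, with a difference between *Tet3*-/- and *Tet3*+/+ of -0.57 (SE 0.08, limma, Benjamini-Hochberg adjusted p 9.89e-05). *Nsdhl* had 1912 and 1847 (*Tet3*+/+), 921 and 994 (*Tet3* m/m) and 1764 and 1482 (*Tet3*-/-). It fell in *Tet3*-/-, at -0.41 (SE 0.09, limma, Benjamini-Hochberg adjusted p 0.00287), and the difference from *Tet3*+/+ was -0.63 (SE 0.12, limma, Benjamini-Hochberg adjusted p 0.00213). *Dhcr7* had 5185 and 4834 (*Tet3*+/+), 2837 and 3048 (*Tet3* m/m) and 3809 and 3455 (*Tet3*-/-) and fell in *Tet3*-/-, at -0.43 (SE 0.06, limma, Benjamini-Hochberg adjusted p 7.43e-05), with a difference of -0.57 from *Tet3*+/+. *Sqle* had 7023 and 6942 (*Tet3*+/+), 5817 and 5646 (*Tet3* m/m) and 7120.4 and 6751 (*Tet3*-/-), rising in *Tet3*+/+ at 0.20 and falling in *Tet3*-/- at -0.28, with a difference of -0.48 (SE 0.06, limma, Benjamini-Hochberg adjusted p 4.96e-05). *Ebp*, with 857 and 860.2 (*Tet3*+/+), 1440.1 and 1453 (*Tet3* m/m) and 876 and 893 (*Tet3*-/-), was the one sterol enzyme above its empty-vector samples in *Tet3*-/- cells, and its difference between *Tet3*-/- and *Tet3*+/+ of 0.04 was not called. Differences between *Tet3*-/- and *Tet3*+/+ of the other sterol steps were -0.45 for *Cyp51*, -0.48 for *Tm7sf2*, -0.32 for *Msmo1*, -0.40 for *Hsd17b7*, -0.32 for *Sc5d* and -0.26 for *Fdft1*, all called.

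The largest fall under Dnmt1 in *Tet3*-/- cells was that of *Insig1*, which had 6026 and 6413 (*Tet3*+/+), 8038 and 7623 (*Tet3* m/m) and 3718 and 3256 (*Tet3*-/-) with Dnmt1. Both *Tet3*-/- samples were below both empty-vector *Tet3*-/- samples, at -0.45 (SE 0.06, limma, Benjamini-Hochberg adjusted p 2.07e-05), and the difference from *Tet3*+/+ was -0.35 (SE 0.08, limma, Benjamini-Hochberg adjusted p 0.00925). *Stard4* had 3676 and 3851 (*Tet3*+/+), 3898 and 3987 (*Tet3* m/m) and 2693 and 2474 (*Tet3*-/-). It fell in *Tet3* m/m, at -0.19, and in *Tet3*-/-, at -0.40 (SE 0.05, limma, Benjamini-Hochberg adjusted p 3.63e-05), with a difference between *Tet3*-/- and *Tet3*+/+ of -0.39 (SE 0.08, limma, Benjamini-Hochberg adjusted p 0.00232). *Srebf2* had 20664 and 20027 (*Tet3*+/+), 18553 and 18207 (*Tet3* m/m) and 18799 and 18238 (*Tet3*-/-), and it fell in *Tet3*-/-, at -0.21 (SE 0.04, limma, Benjamini-Hochberg adjusted p 7.58e-04), with a difference of -0.23 from *Tet3*+/+. *Srebf1* had 6749.8 and 6302 (*Tet3*+/+), 5429 and 5341 (*Tet3* m/m) and 7262 and 7102 (*Tet3*-/-), with no call in any genotype.

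In the fatty acid branch *Acly* had 26322 and 25092 (*Tet3*+/+), 19765 and 19568 (*Tet3* m/m) and 20224 and 19405 (*Tet3*-/-) with Dnmt1. The *Tet3*-/- samples dropped to the level of *Tet3* m/m, a change of -0.37 (SE 0.04, limma, Benjamini-Hochberg adjusted p 2.86e-06), and the difference from *Tet3*+/+ was -0.46 (SE 0.06, limma, Benjamini-Hochberg adjusted p 1.40e-05). *Scd2* had 81907 and 77207 (*Tet3*+/+), 57537 and 58438 (*Tet3* m/m) and 96914 and 89453 (*Tet3*-/-). It rose in *Tet3*+/+ by 0.27 (SE 0.04, limma, Benjamini-Hochberg adjusted p 6.63e-04) and in *Tet3* m/m by 0.27 (SE 0.04, limma, Benjamini-Hochberg adjusted p 2.20e-04) and fell in *Tet3*-/-, at -0.25 (SE 0.04, limma, Benjamini-Hochberg adjusted p 4.04e-04), so that *Tet3*-/- samples stayed highest. *Fasn* had 48375 and 46568 (*Tet3*+/+), 31783 and 33987 (*Tet3* m/m) and 40814 and 37954 (*Tet3*-/-), rising in *Tet3*+/+ by 0.26 (SE 0.05, limma, Benjamini-Hochberg adjusted p 0.00186), with a difference between *Tet3*-/- and *Tet3*+/+ of -0.49 (SE 0.07, limma, Benjamini-Hochberg adjusted p 5.38e-05). *Scd1* had 12967 and 12638 (*Tet3*+/+), 9103 and 9569 (*Tet3* m/m) and 11399 and 9462 (*Tet3*-/-) and fell in *Tet3*-/-, at -0.38, with a difference of -0.49 (SE 0.08, limma, Benjamini-Hochberg adjusted p 6.29e-04) from *Tet3*+/+. *Acaca* and *Elovl6* had differences between *Tet3*-/- and *Tet3*+/+ of -0.38 and -0.40, both called.

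**Figure D3:**
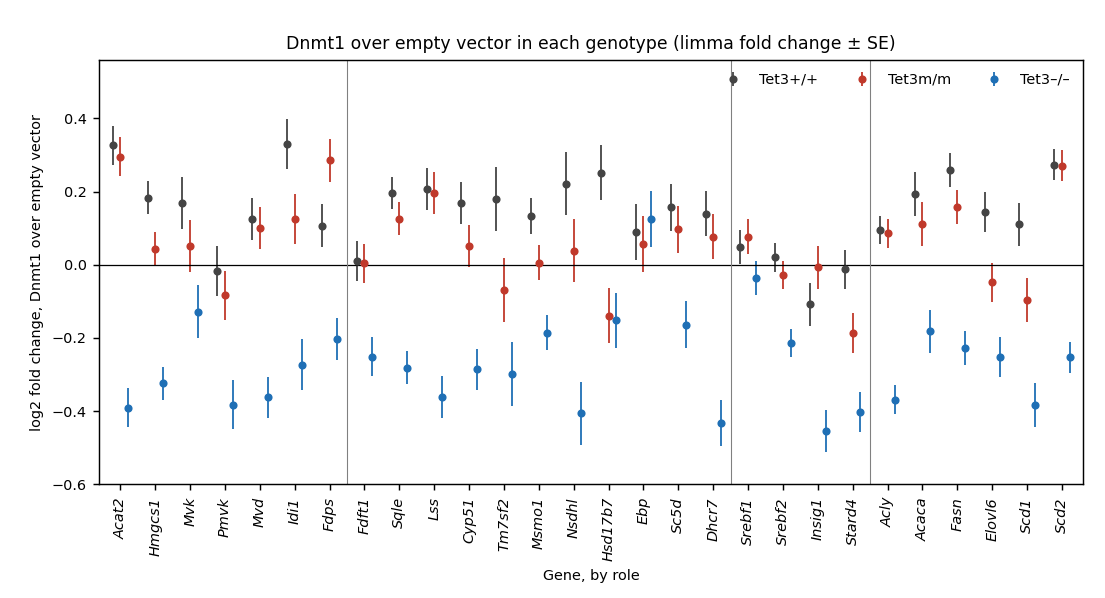
Log2 fold change of Dnmt1 over empty vector for each of the 28 genes in each genotype (points are limma estimates from 2 samples against 2, bars are 1 SE), with lines between roles. In *Tet3*-/- cells 23 genes were called lower, and in *Tet3*+/+ cells 7 were called higher.

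In the Tet3-CD experiment each value is 1 sample, so differences have no replicate check and are given as those past 1.5-fold. Fitted additively over the 3 genotypes, the catalytic domain gave 0 members called in either direction, where 0% of all genes were called, limma had 0 at an unadjusted p under 0.05, beside 5.76% of all genes, and edgeR called 0. In *Tet3*+/+ cells 0 of 28 members were past 1.5-fold higher, where 6.11% of all genes were, and 0 lower, where 7.30% were, by the ratio alone with no test. In *Tet3* m/m cells 0 were higher, where 4.58% of all genes were, and 0 lower, where 5.53% were. In *Tet3*-/- cells 0 were higher, where 9.89% of all genes were, and 3 lower, where 11.6% were, which is not above the share of all genes. The median ratio of the members was 0.01 (*Tet3*+/+), 0.01 (*Tet3* m/m) and -0.24 (*Tet3*-/-), beside 0.00, 0.00 and -0.02 over all genes, and 24 of 28 were below 0 in *Tet3*-/-. *Insig1* had 14940.1 (*Tet3*+/+), 2322 (*Tet3* m/m) and 6052 (*Tet3*-/-) in empty-vector samples and 12749, 2268 and 2765 with the catalytic domain. Its *Tet3*+/+ samples were the highest of the 6, and the 3 lowest were both *Tet3* m/m samples and *Tet3*-/- with the catalytic domain. *Scd1* went from 12476 to 7582 in *Tet3*-/- cells, and *Dhcr7* from 3719.6 to 2453. In both genes the *Tet3*+/+ and *Tet3* m/m pairs were close, with *Scd1* at 8573 and 8242 in *Tet3*+/+ and 3845 and 4061 in *Tet3* m/m cells.

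Between genotypes of this experiment, empty-vector *Tet3* m/m cells had 0 of 28 members past 1.5-fold above *Tet3*+/+, where 20.2% of all genes were, and 11 below, where 16.1% were, by the ratio alone. The median was -0.41, beside 0.01 over all genes. *Insig1* was the lowest, with a ratio of -2.69, and *Stard4* had a ratio of -1.17 from 3823 in *Tet3*+/+ and 1700.0 in *Tet3* m/m cells. *Acat2* had 4844 and 2664, and *Lss* had 4187 and 2484. Both were lower in *Tet3* m/m, as in the other experiments. Empty-vector *Tet3*-/- cells had 0 members past 1.5-fold above *Tet3*+/+, where 15.4% of all genes were, and 1 below, where 11.7% were, with a median of 0.00. That 1 was *Insig1*, at -1.30.

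The 3 experiments have separate samples, so the direction of the genotypes can be counted over them. In *Tet3* m/m cells 24 of 28 members were below *Tet3*+/+ in all 3 experiments, beside 22.7% of the 16812 genes measured in all. The exceptions were *Insig1* and *Stard4*, below in 2, *Elovl6*, below in 1, and *Ebp*, which was the 1 member above in all 3, beside 21.8% of all genes. In *Tet3*-/- cells 2 members, *Insig1* and *Stard4*, were below *Tet3*+/+ in all 3 experiments, beside 16.0% of all genes, and 1, *Srebf1*, was above in all 3, beside 16.7%. The *Tet3*-/- genotype thus had no common direction for most of these genes. *Lss* was an example in *Tet3*-/- cells, with differences from *Tet3*+/+ of -0.37 on day 3, 0.25 with the empty vector of the Dnmt1 experiment and -0.01 for Tet3-CD, where the first was not called and the last has no test.

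Other genes of the pathway were counted on lists taken by function. Of 9 further genes for sterol synthesis, SREBP processing and sterol transport, 2 fell, where 7.28% of all genes did, and 0 rose in *Tet3* m/m on day 3. They were *Aacs*, which makes acetoacetyl-CoA from acetoacetate, and the sterol-regulated membrane protein gene *Tmem97*. *Aacs* had 2863, 2498 and 3230.0 (*Tet3*+/+), 1663, 2128 and 1620.1 (*Tet3* m/m) and 3289.5 and 2589 (*Tet3*-/-), with *Tet3* m/m samples lowest and a fold change of -0.67, and the fold change of *Tmem97* was -0.38. With the empty vector 3 of the 9 fell, where 23.6% of all genes did, and 5 rose, where 21.9% did, in *Tet3* m/m, with *Aacs* at -0.89. In *Tet3*-/- 4 fell, where 26.6% did, and 2 rose, where 26.7% did, with *Aacs* at 0.58. In empty-vector *Tet3* m/m against *Tet3*+/+ of the Tet3-CD experiment 2 were past 1.5-fold lower, where 16.1% of all genes were, and 0 higher, where 20.2% were. In the interaction of Dnmt1 with *Tet3*-/-, 2 of the 9 were lower, where 4.47% of all genes were, and 0 higher. These were *Aacs* at -0.34 and *Tmem97* at -0.27. *Mbtps2*, whose protease releases SREBP in the Golgi, had 1748, 2026 and 1797 (*Tet3*+/+), 1733, 1416 and 7387 (*Tet3* m/m) and 1699.9 and 1559 (*Tet3*-/-) on day 3 and 2159 and 2172 (*Tet3*+/+), 16309.9 and 16184 (*Tet3* m/m) and 1639 and 1757 (*Tet3*-/-) in empty-vector samples of the Dnmt1 experiment. Replicate 3 of *Tet3* m/m was far above the others on day 3, singled out after its values were seen, and all *Tet3* m/m samples of the Dnmt1 experiment were higher still. In the Tet3-CD experiment its values were 1880.2 in *Tet3*+/+ and 1165 in *Tet3* m/m cells with the empty vector. Its part in the members' values was not tested.

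Of 14 further genes for fatty acid synthesis and desaturation, 3 fell, where 7.28% of all genes did, and 0 rose in *Tet3* m/m on day 3. The 3 were *Mid1ip1* at -0.99, *Fads2* at -0.57 and *Fads1* at -0.52. The desaturase gene *Fads2* had 12946, 11130.2 and 12726 (*Tet3*+/+), 8115, 8878 and 7702 (*Tet3* m/m) and 11419 and 10653 (*Tet3*-/-), with *Tet3* m/m samples lowest. Among these 14, with the empty vector, 6 fell, where 23.6% of all genes did, and 3 rose, where 21.9% did, in *Tet3* m/m. *Fads1* and *Fads2* again fell, at -0.91 and -0.94, but *Mid1ip1* was not called, at 0.11. *Me1* had 2453 and 2513 (*Tet3*+/+), 7215 and 7272 (*Tet3* m/m) and 2103 and 2008 (*Tet3*-/-) and rose in *Tet3* m/m, at 1.54, as did *Acacb*, with 711 and 676 (*Tet3*+/+), 1375 and 1369 (*Tet3* m/m) and 357 and 458 (*Tet3*-/-), at 0.98. In *Tet3*-/- 6 fell, where 26.6% did, and 4 rose, where 26.7% did. For Tet3-CD, empty-vector *Tet3* m/m cells had 6 past 1.5-fold below *Tet3*+/+, where 16.1% were, and 1 above, where 20.2% were. In the interaction of Dnmt1 with *Tet3*-/-, 3 of the 14 were lower, where 4.47% of all genes were, and 0 higher, the 3 genes of day 3 at -0.56, -0.50 and -0.38. Of 5 genes of the isoprenoid branch, 2 fell, where 7.28% of all genes did, and 0 rose in *Tet3* m/m on day 3, *Coq2* at -0.60 and *Dhdds* at -0.33. Under the empty vector 2 fell, where 23.6% did, and 1 rose, where 21.9% did, in *Tet3* m/m.

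Of 6 genes of sterol efflux and its LXR regulators, none was called by limma in *Tet3* m/m on day 3, with 2 higher at an unadjusted p under 0.05, beside 14.1% of all genes. Under the empty vector 4 rose, where 21.9% of all genes did, and 0 fell, where 23.6% did, with *Abcg1* highest at 1.18. The Tet3-CD experiment had 2 past 1.5-fold lower in empty-vector *Tet3* m/m cells, where 16.1% were, and 1 higher, where 20.2% were, with *Abca1* at 1251 (*Tet3*+/+) and 609.8 (*Tet3* m/m). In the interaction with *Tet3*-/- 2 of the 6 were higher, where 5.24% of all genes were, *Abcg1* at 0.63 and *Apoe* at 0.47. Of 10 genes of fatty acid oxidation, none was called by limma in *Tet3* m/m on day 3, with 3 lower at an unadjusted p under 0.05, beside 14.4% of all genes. Empty-vector *Tet3* m/m cells had 5 that rose, where 21.9% of all genes did, and 0 fell, where 23.6% did. *Cpt1a* was highest there, with 296 and 281 (*Tet3*+/+), 609.6 and 581 (*Tet3* m/m) and 335 and 323 (*Tet3*-/-) and a fold change of 1.04 in *Tet3* m/m, but on day 3 it had 409, 211 and 374 (*Tet3*+/+), 242, 159 and 170.1 (*Tet3* m/m) and 616 and 599 (*Tet3*-/-), a difference of -0.77 that was not called. Between empty-vector *Tet3* m/m and *Tet3*+/+ cells of the Tet3-CD experiment 1 of the 10 was past 1.5-fold lower, where 16.1% were, and 0 higher, where 20.2% were.

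Per kilobase of exon, *Scd2* was the most abundant member on day 3, with 19409 normalized counts per kilobase as the mean of *Tet3*+/+ cells. *Acly* followed with 4538, *Hmgcs1* with 3778 and *Fasn* with 3609, and the least abundant was *Hsd17b7* with 293. Exon lengths come from an annotation of another assembly than the authors used. By position, *Mvd* and *Msmo1* lie on chromosome 8, where the median fold change of all genes was -0.34 in *Tet3* m/m on day 3 and -0.45 with the empty vector, and -0.38 in *Tet3*-/- with the empty vector. These were the 2 members with the largest falls in *Tet3* m/m in those experiments, but not in the Tet3-CD experiment, where their ratios were -0.59 and -0.25. The part of the chromosome in their values was not tested. Leaving out members on chromosomes 6 and 8, 18 of 26 fell in *Tet3* m/m on day 3, beside 5.72% of all genes off these chromosomes, with a median of -0.54. Of the 26, with the empty vector, 22 fell, beside 21.7%, and 4 rose, beside 24.5%, with a median of -0.41. Exons of *Fdps* share 26.7% of their bases with *Gm43738* on the same strand, a gene absent from the deposited tables. Those of *Fdft1* share 18.3% with *Ctsb* on the other strand, those of *Tm7sf2* share 12.1% with *Vps51* on the same strand and those of *Hmgcs1* share 12.1% with *Gm48342* on the other strand. Reads in such bases may belong to either gene.

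Promoters were read from RefSeq, assembly GRCm38.p6, as 250 bases before to 50 after a gene's start. Of the 28 members 22 had an entry, in 27 promoters, and *Fdps*, *Fdft1*, *Sqle*, *Stard4*, *Scd1* and *Scd2* had none. On both strands, the letters CCAAT, bound by NF-Y, were present in 20 of the 27 promoters, which belong to 19 of the 22 genes, and in 37.4% of all 32851 promoters. The sterol regulatory element TCACNCCAC was present in 1 of the 27, that of *Hmgcs1*, and in 1.24% of all promoters. The E-box CACGTG was present in 4 of the 27, those of *Hsd17b7*, *Sc5d*, *Dhcr7* and *Insig1*, and in 7.15% of all promoters. A match is a description of the letters and not a measured binding site. The 4 promoters below belong to the gene with the sterol element (chr13:119690101-119690400, plus strand), the gene with the largest fall in *Tet3* m/m on day 3 and with the empty vector of the Dnmt1 experiment (chr8:122443373-122443672, minus strand), a sterol enzyme lower in *Tet3* m/m in every experiment (chr10:76531355-76531654, plus strand) and the regulator whose direction differed between experiments (chr5:28071162-28071461, plus strand), with motifs on either strand in capitals.
Hmgcs1: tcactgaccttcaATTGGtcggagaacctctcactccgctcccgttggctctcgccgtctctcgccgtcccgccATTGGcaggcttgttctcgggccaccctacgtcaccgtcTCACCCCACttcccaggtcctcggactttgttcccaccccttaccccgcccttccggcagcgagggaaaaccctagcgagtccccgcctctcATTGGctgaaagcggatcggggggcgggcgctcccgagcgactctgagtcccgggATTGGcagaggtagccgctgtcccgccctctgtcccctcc
Mvd: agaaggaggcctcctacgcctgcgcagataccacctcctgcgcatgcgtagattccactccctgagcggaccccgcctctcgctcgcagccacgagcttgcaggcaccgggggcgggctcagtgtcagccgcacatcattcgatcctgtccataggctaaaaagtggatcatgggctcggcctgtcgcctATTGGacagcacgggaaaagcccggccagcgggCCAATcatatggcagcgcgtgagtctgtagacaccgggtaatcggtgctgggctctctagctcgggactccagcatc
Lss: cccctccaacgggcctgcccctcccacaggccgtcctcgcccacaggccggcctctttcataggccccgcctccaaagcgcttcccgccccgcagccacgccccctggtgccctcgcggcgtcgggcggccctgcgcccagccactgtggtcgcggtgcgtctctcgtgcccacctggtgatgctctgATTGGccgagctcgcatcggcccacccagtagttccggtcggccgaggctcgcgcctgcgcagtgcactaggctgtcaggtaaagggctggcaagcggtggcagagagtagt
Insig1: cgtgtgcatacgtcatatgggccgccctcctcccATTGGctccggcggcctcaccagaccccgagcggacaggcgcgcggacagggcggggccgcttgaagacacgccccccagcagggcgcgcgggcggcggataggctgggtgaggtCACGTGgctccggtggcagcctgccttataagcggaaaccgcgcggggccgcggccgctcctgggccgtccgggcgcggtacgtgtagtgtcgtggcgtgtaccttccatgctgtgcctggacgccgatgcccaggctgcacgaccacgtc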

How the data were processed

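RNA-seq of 26 samples was used. The authors trimmed reads with Trim Galore 0.6.7, aligned them with STAR 2.7.9a to mm39, counted them with featureCounts and deposited signal values as DESeq2-normalized counts. WGBS, hmeDIP and CUT&Tag samples were not analysed here. The members and gene lists were chosen with earlier results of these data known. Withheld genes are not reported, and the list that had held them was counted without them. Genes with a mean of at least 10 were tested, 17915 of 17948, 18055 of 18091 and 17481 of 17705. Log2 values with a pseudocount of 1 were fitted with limma 3.58.1 (R 4.3.3, trend), all groups of an experiment together. Whole reads recovered from the deposited counts went into edgeR 4.0.16 and DESeq2 1.42.0. Members named first are up to 8 called ones with the largest fold change in each comparison. The remaining members and the genes of other lists were named after their values were seen. Tables and figures used Python 3.11.15, numpy 2.4.6, pandas 2.3.3 and matplotlib 3.10.9. Steps were tested on simulated data.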

Additional observations from a re-analysis of the deposited data

Results flagged for a closer look

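The effect of Dnmt1 differed between *Tet3*-/- and *Tet3*+/+ cells for 25 of the 28 genes by limma's interaction test. All 25 were lower, where 4.47% of all genes were, and 0 higher, where 5.24% were. *Dnmt1* itself rose more in *Tet3*-/- than in *Tet3*+/+ cells, by 0.42 (SE 0.09, limma, Benjamini-Hochberg adjusted p 0.00502). The part of its level in these differences was not tested.

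Between *Tet3*-/- and *Tet3*+/+ cells, every *Tet3*-/- sample lay below every *Tet3*+/+ sample on day 3 and above with the empty vector of the Dnmt1 experiment for 4 of the 28 genes, beside 4.80% of all genes measured in both. The log2 differences were -0.36 and 0.29 for *Acat2*, -0.57 and 0.0659 for *Pmvk*, -0.37 and 0.25 for *Lss*, and -0.36 and 0.11 for *Dhcr7*. None of the day 3 differences was called by limma, and with the empty vector only those of *Acat2* and *Lss* were.

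Between *Tet3* m/m and *Tet3*+/+ cells the same held for 2 of the 28, *Insig1*, at -0.57 and 0.23, and *Stard4*, at -0.70 and 0.24, each called in both experiments, beside 2.37% of all genes. The differences between experiments were not tested.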

How the results depend on the processing

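Counts of members called are of 28, both directions counted together, and medians are of log2 fold changes. Not every setting that moved one of these is given. As printed above, DESeq2 gave 15 instead of 11 for *Tet3*-/- against *Tet3* m/m on day 3. The cause of these moves was not tested.

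Asking also for a fold above 1.5 left 13 of 20 for *Tet3* m/m against *Tet3*+/+ on day 3, 6 of 11 for *Tet3*-/- against *Tet3* m/m on day 3, 10 of 28 for *Tet3* m/m and 4 of 23 for *Tet3*-/- against *Tet3*+/+ with the empty vector. It left 0 for Dnmt1 in each genotype and 0 for the mean of the 3 genotypes. The same fold, asked of the interaction of *Tet3*-/- after seeing the data, left 3 of 25. By this rule 5.19% of all genes were lower for *Tet3* m/m against *Tet3*+/+ on day 3, 5.41% higher for *Tet3*-/- against *Tet3* m/m, 0.720% higher and 0.465% lower for the mean, and 1.33% lower in that interaction.

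Fitting only the compared groups gave 1 instead of 0 for *Tet3*-/- against *Tet3*+/+ on day 3, 2 instead of 11 for *Tet3*-/- against *Tet3* m/m and 15 instead of 7 for Dnmt1 in *Tet3*+/+. DESeq2 gave 1 for *Tet3*-/- against *Tet3*+/+ on day 3, where it called 2.99% of all genes lower.

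With replicate numbers as a block, 6 were called for *Tet3*-/- against *Tet3* m/m on day 3, where 999 of all 17915 genes were called higher and 711 lower. For Dnmt1 in *Tet3* m/m the block gave 3, where 816 of all 17920 genes were called higher and 383 lower. Nothing shows that equal numbers belong together. No paired analysis was possible because the empty-vector *Tet3*+/+ columns carry no numbers, for Dnmt1 in *Tet3*+/+ and for the interactions.

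Leaving out 1 sample at a time gave 13 to 24 for *Tet3* m/m against *Tet3*+/+ on day 3. For *Tet3*-/- against *Tet3*+/+ on day 3 it gave 0 to 1, with medians of -0.32 to -0.0101. For *Tet3*-/- against *Tet3* m/m on day 3 it gave 1 to 15, with medians of 0.25 to 0.53. The empty-vector median for *Tet3*-/- against *Tet3* m/m was 0.68 to 0.76. Shares of all genes called moved with the sample left out and are given above for some settings only, so the ranges of counts are not read alone.

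For Dnmt1, leaving out 1 sample gave 3 to 11 in *Tet3*+/+, 3 to 7 in *Tet3* m/m and 15 to 23 in *Tet3*-/-, where medians were -0.33 to -0.22. The interaction of *Tet3* m/m gave 0 to 1. The share of all genes called also moved with the sample left out. It is given above for some of these settings only, so nothing is read from the ranges alone.

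With a fold of 1.3 instead of 1.5, 6 members passed for Tet3-CD in *Tet3*-/- and 6 between empty-vector *Tet3*-/- and *Tet3*+/+ of that experiment, 4 higher and 2 lower, where 0 higher and 1 lower had passed 1.5. The share of all genes past 1.3-fold is not given, so nothing is read from these counts. Past 1.5-fold that share was 9.89% higher and 11.6% lower for the first, and 15.4% higher and 11.7% lower for the second.

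Groups hold 3 samples at most and the Tet3-CD groups 1, so a single sample can carry a count. The lowest member in any sample had 658 reads on day 3, 534 for Dnmt1 and 550.0 for Tet3-CD, where counting error was at most 4.33% of a value. The strand setting of the read counting is not stated, so reads in exons shared by 2 genes cannot be placed. RNA does not measure sterols, SREBP protein or enzyme activity.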
